A study of Mus musculus with 12 samples.

Results

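The response of the mouse lung to high oxygen on a high-fat diet was described from 6 libraries of whole-lung RNA of C57BL/6J mice, an inbred strain. In 3 libraries the mice had eaten a 60% fat diet and breathed more than 95% oxygen, and in the other 3 they had eaten the same diet and breathed room air. The series holds 12 libraries in 4 groups of 3, and the remaining 6 repeat both exposures on a 10% fat diet. The labels give a feeding period of 12 weeks, but no age, no length of exposure and no animal for each library. The p-values set each difference against the spread of libraries within groups, pooled over all 12 libraries, and that spread may be technical. All genes were included whose RPKM (reads scaled to the length of the transcript and to the mapped reads of the library, so a level corrected for length and depth) reached 1 in 3 or more of the 12 libraries. Of 20793 entries deposited, 13334 met that rule, and 13324 of them had enough values in each group to be tested.

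Oxygen at such concentrations is used to model acute lung injury. It raises the production of reactive oxygen species, damages capillary endothelium and alveolar epithelium, and lets fluid leak into the airspaces. Cells are known to answer through a few transcription factors: NRF2, which turns on antioxidant genes, p53, which halts division after DNA damage, and ATF4, the effector of the integrated stress response, which is switched on when protein synthesis is slowed. Which genes of these and other systems differed between the exposed and the unexposed lungs of mice on a high-fat diet was the question of the comparison.

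A linear model of log2(RPKM + 0.5) called 8370 genes at an adjusted p under 0.05 (limma, Benjamini-Hochberg adjustment over all tested genes), which is 62.8% of those tested. Of all tested genes 26.3% were called higher and 36.5% lower under oxygen, and these shares are the background for each count given for a gene list. The median log2 change of all tested genes was -0.09. In 66.5% of tested genes the 3 values under oxygen did not overlap the 3 in room air. A log2 change is a difference between means on the log2(RPKM + 0.5) scale, oxygen minus room air, so it understates the change of genes near 0, and it is given with its standard error. Summed RPKM was 535709 to 540201 in the oxygen libraries and 606412 to 727710 in the room-air libraries. Rough depths read from the steps between low values were 20600000 to 21600000 reads under oxygen and 23200000 to 27800000 reads in room air.

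The 15 largest rises among called genes without overlap lay between 3.50 and 6.29 on the log2 scale. Their genes were, in falling order, Gdf15, Cldn4, Mt2, Prss22, Adm2, Sprr1a, Ankrd1, F3, Timp1, Mt1, Slc7a11, Tnfrsf12a, Cyr61, Areg and Srxn1, and most are described with their groups below. Prss22, which encodes a serine protease of airway epithelium, had 27.3, 29.4 and 31.6 RPKM under oxygen, against 0.485, 0.356 and 0.163 RPKM in room air (5.18 ± 0.16). Timp1, an inhibitor of matrix metalloproteases, had 161, 159 and 157 RPKM under oxygen, against 10.3, 9.34 and 8.76 RPKM in room air (4.003 ± 0.22), and Cyr61, a matricellular target of YAP, had 568, 633 and 663 RPKM under oxygen, against 50.2, 65.0 and 33.8 RPKM in room air (3.68 ± 0.17). In these as in the rest of the 15 every oxygen library was above every room-air library, which the way they were picked requires.

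The 15 largest falls lay between -4.51 and -3.12. Of these genes 10 encode proteins of striated or heart muscle: Sln, Myh6, Mb, Csrp3, Myl4, Mybphl, Tcap, Ckmt2, Myl7 and Pln. Sln, a regulator of the muscle calcium pump, had 2.06, 0 and 2.77 RPKM under oxygen, against 34.4, 37.3 and 37.4 RPKM in room air, listed at 0 in oxygen replicate 2, and Mb, myoglobin, had 5.05, 0.765 and 5.89 RPKM under oxygen, against 55.4, 57.1 and 47.7 RPKM in room air (-3.92 ± 0.52). Without that replicate the log2 change of Sln was -3.67 in place of -4.51, and that of Myl4 was -2.96 in place of -3.59. The other 5 were Kcnj13, Aplnr, Fabp1, Lgi3 and Cckar. Fabp1, a fatty acid binding protein known from liver, had 4.63, 4.89 and 2.55 RPKM under oxygen, against 52.9, 48.9 and 27.9 RPKM in room air (-3.27 ± 0.26). It is also in a list of 5 alveolar macrophage markers, of which 3 were lower and 1 was higher. These markers summed to 423 to 1090 RPKM under oxygen, against 566 to 2336 RPKM in room air, which overlapped. The part of these cells in the Fabp1 values was not tested. Lgi3, a secreted leucine-rich protein, had 11.8, 5.71 and 9.04 RPKM under oxygen, against 73.9, 91.2 and 78.7 RPKM in room air (-3.18 ± 0.20), and Cckar, a cholecystokinin receptor, had 3.88, 2.71 and 1.64 RPKM under oxygen, against 27.6, 28.4 and 23.9 RPKM in room air (-3.12 ± 0.20). For all 15 genes the oxygen libraries lay below the room-air libraries, which the way they were picked requires. Without oxygen replicate 2 the log2 change of Mb was -3.17.

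Lung markers were present: all 12 genes of a list that runs from surfactant and club cell genes to Pecam1 and Ptprc reached 1 RPKM in these 6 libraries, and the keratin genes Krt4, Krt5 and Krt13 of oesophagus and skin were under 1 RPKM in all 6. In bulk tissue, fewer cells of a type and less RNA per cell cannot be told apart, and this holds for all genes below that are known from 1 cell type. Room-air replicate 2 stood apart in heat shock genes, and room-air replicate 3 in neutrophil genes, as described below. Both are of the 60% fat diet, as are all replicates named without a diet.

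Short stretches are shown from the promoters of some stress genes, picked because they hold a match to an element core. Where a gene has more than 1 start, only a window with a match is shown. The stretches were taken from RefSeq (GRCm38.p6), which gives 250 bases before and 50 after each start. They are written 5′ to 3′ on the strand of the gene, with coordinates of that build. Capitals mark every match, on either strand, to the core of an element bound by ATF4 with a C/EBP partner (TGATGNAA) upstream of genes of the integrated stress response.
Chac1 (chr2:119351029-119351076, + strand): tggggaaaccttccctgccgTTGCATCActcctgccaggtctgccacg
Atf3 (chr1:191183416-191183463, - strand): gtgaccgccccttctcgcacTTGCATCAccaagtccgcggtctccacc
Nupr1 (chr7:126625553-126625600, - strand): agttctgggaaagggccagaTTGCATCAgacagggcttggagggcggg
Slc7a11 (chr3:50443633-50443699, - strand): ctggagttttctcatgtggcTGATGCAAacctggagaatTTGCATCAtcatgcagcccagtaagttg
Asns (chr6:7693210-7693252, - strand): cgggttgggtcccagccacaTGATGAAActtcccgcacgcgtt
The ATF4 core stood in the promoters of 16 of 58 genes matched from the lists of stress regulators, amino acid synthesis, amino acid transporters and cytosolic tRNA synthetases, and 15 of these were higher under oxygen, as were 41 of all 58. Of all genes with a RefSeq promoter 4.51% held it, and of all promoters 3.97%. The windows of Gdf15, Atf4, Ddit3, Mthfd2, Phgdh, Shmt2 and Slc3a2 did not hold it. For the antioxidant response element, bound by NRF2, the core TGACNNNGC is in capitals in the promoters of both thiol enzymes below.
Gclm (chr3:122245403-122245451, + strand): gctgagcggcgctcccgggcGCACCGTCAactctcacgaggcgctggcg
Txnrd1 (chr10:82859094-82859142, + strand): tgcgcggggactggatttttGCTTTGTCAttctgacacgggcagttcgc
That core stood in at least 1 promoter of 7 of 29 matched glutathione, thioredoxin and NADPH genes, against 14.0% of all genes and 12.4% of all promoters. The Mt2 promoter is shown with the metal response element core (TGCGCNC or TGCACNC), which binds the zinc sensor MTF1.
Mt2 (chr8:94172375-94172594, + strand): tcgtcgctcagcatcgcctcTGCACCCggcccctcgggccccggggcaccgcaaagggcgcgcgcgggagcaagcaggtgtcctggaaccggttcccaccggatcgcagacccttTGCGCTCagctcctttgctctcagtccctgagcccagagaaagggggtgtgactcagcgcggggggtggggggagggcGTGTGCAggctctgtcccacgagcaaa
It held 3 matches upstream of its start and 4 in the whole window. Of all promoters 25.7% had at least 1 match, 7.11% had more than 1 and 0.517% had 4 or more. Of 10 matched genes of metallothioneins and zinc carriers 6 had a match in at least 1 promoter, against 28.2% of all genes. For the heat shock element core (GAANNTTC), which binds HSF1, 3 chaperone genes are shown.
Hspa1a (chr17:34972233-34972280, - strand): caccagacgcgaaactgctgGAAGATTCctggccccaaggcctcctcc
Dnaja1 (chr4:40722324-40722371, + strand): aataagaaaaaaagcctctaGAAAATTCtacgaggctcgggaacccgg
Hspe1 (chr1:55088044-55088091, + strand): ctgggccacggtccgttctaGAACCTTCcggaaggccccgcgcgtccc
Of 21 matched heat shock genes 12 held this core in at least 1 promoter, against 9.04% of all genes and 7.86% of all promoters. The matches are a description of these windows and say nothing of binding in these lungs.

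In the list of ATF4 and CHOP stress regulators 11 of 19 tested genes were higher and 2 were lower (median log2 change 0.98). Atf4 itself had 395, 417 and 387 RPKM under oxygen, against 109.8, 156 and 112 RPKM in room air, a log2 change of 1.68 ± 0.12 (adjusted p = 3.3e-07). The cofactor gene Nupr1, known from stressed pancreas, had 2983, 3264 and 2775 RPKM under oxygen, against 378, 385 and 297 RPKM in room air (3.09 ± 0.14). All oxygen values of both genes lay above all room-air values. Atf3, which encodes a repressor of inflammatory genes, had 45.6, 61.4 and 55.0 RPKM under oxygen, against 7.27, 19.96 and 8.50 RPKM in room air (2.26 ± 0.32), and its highest room-air value was that of replicate 2. Chac1, which encodes an enzyme that breaks down glutathione, rose by 2.33 ± 0.16, and Sesn2, whose product restrains mTORC1, by 1.16 ± 0.13. Ddit3, the gene of CHOP, had 50.3, 55.8 and 48.9 RPKM under oxygen, against 35.2, 53.9 and 35.0 RPKM in room air, groups that overlapped and were not called (0.35 ± 0.16, adjusted p = 0.0842). Ddit4, another restraint on mTORC1, was not called either (0.51 ± 0.23, adjusted p = 0.0755). Ddit3 was called without room-air replicate 2 (adjusted p = 0.00394). Ddit4 was called without room-air replicate 2 (adjusted p = 0.0120). For ATF4 and CHOP stress regulators the count called lower was 1 without oxygen replicate 1, oxygen replicate 2, oxygen replicate 3 or room-air replicate 3 and 4 without room-air replicate 2.

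Genes of amino acid synthesis, uptake and tRNA charging were called higher more often than lower. Of 17 genes of serine, glycine, asparagine and proline synthesis 13 were higher and 1 lower (median 1.31). Mthfd2, a mitochondrial enzyme of the folate cycle, had 46.4, 54.1 and 52.5 RPKM under oxygen, against 4.95, 4.76 and 5.36 RPKM in room air (3.22 ± 0.18, 9.31-fold). Asns, the asparagine synthetase, had 86.9, 102 and 95.4 RPKM under oxygen, against 12.9, 18.6 and 14.4 RPKM in room air (2.61 ± 0.16). These ranges were far apart, and the same held for Phgdh, the first enzyme of serine synthesis (2.01 ± 0.21), and the folate enzymes Aldh1l2 (2.66 ± 0.17) and Shmt2 (1.31 ± 0.10). The cytosolic Shmt1, which does in the cytosol what Shmt2 does in mitochondria, rose by 0.71 ± 0.12. Cth, which makes cysteine from cystathionine, rose by 1.58 ± 0.17.

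Of 16 amino acid transporter genes 11 were higher and 3 lower (median 0.99). Slc7a11, the carrier that imports cystine for glutathione, had 15.4, 20.8 and 17.0 RPKM under oxygen, against 0.490, 0.570 and 1.06 RPKM in room air (3.93 ± 0.31). Its partner chain Slc3a2 had 404, 534 and 481 RPKM under oxygen, against 128, 165 and 116 RPKM in room air (1.80 ± 0.13), and the leucine carrier Slc7a5, which uses the same partner, had 23.0, 22.0 and 26.0 RPKM under oxygen, against 2.86, 3.10 and 3.33 RPKM in room air (2.75 ± 0.12). No library of either group crossed into the other. The arginine carrier Slc7a1 (2.48 ± 0.07) and the glutamine carrier Slc1a5 (0.99 ± 0.08) also rose.

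Cytosolic and mitochondrial tRNA synthetases, which load amino acids onto tRNA for the ribosomes of each compartment, gave different counts. Of 20 cytosolic synthetases 16 were higher and 1 was lower (median 0.70). Of 17 mitochondrial ones 2 were higher and 4 lower (median 0.07). Sars, for serine, had 94.1, 99.9 and 92.1 RPKM under oxygen, against 25.6, 28.0 and 25.0 RPKM in room air (1.85 ± 0.09). Its change was the largest of the cytosolic set, ahead of Eprs for glutamate and proline (1.33 ± 0.08), Gars for glycine (1.31 ± 0.08) and Aars for alanine (1.31 ± 0.10). The synthetase that fell was Wars, for tryptophan, with 63.1, 52.9 and 55.5 RPKM under oxygen, against 70.0, 63.4 and 63.7 RPKM in room air (-0.20 ± 0.08, adjusted p = 0.0460). Among mitochondrial synthetases Cars2, for cysteine, fell by 1.10 on the log2 scale to 6.21, 5.02 and 4.48 RPKM under oxygen, against 11.6, 12.4 and 11.1 RPKM in room air. Wars was not called in 9 of the 12 fits that leave out 1 library (adjusted p = 0.0516 to 0.178), nor without a filter on low values, after median-ratio scaling, without the trend in the variance or in a fit of the 60% fat libraries alone (adjusted p = 0.0527 to 0.114). For mitochondrial aminoacyl-tRNA synthetases the median log2 change was -0.03 without oxygen replicate 1.

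**Figure D1:**
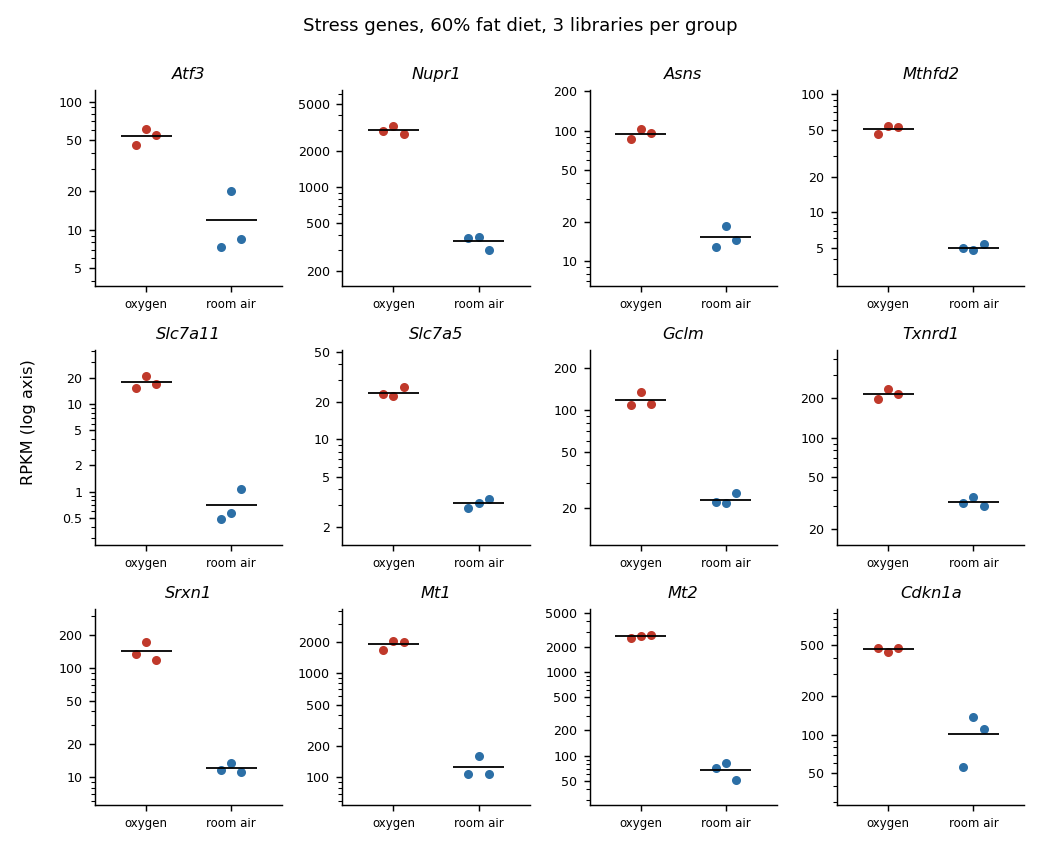
RPKM of 12 stress genes in each library on a log axis, with 60% fat oxygen libraries on the left of each panel and 60% fat room-air libraries on the right. Bars mark group means. In every panel all 3 oxygen values lie above all 3 room-air values.

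In the glutathione and thioredoxin systems, of 21 genes 11 were higher and 5 lower (median 0.30). Srxn1, which repairs oxidised peroxiredoxins, had 135, 173 and 119 RPKM under oxygen, against 11.6, 13.4 and 11.1 RPKM in room air (3.50 ± 0.16, 11.3-fold). Gclm, the modifier subunit of the enzyme that starts glutathione synthesis, had 108, 134 and 109.8 RPKM under oxygen, against 21.8, 21.5 and 25.2 RPKM in room air (2.33 ± 0.10). Gpx2, a glutathione peroxidase known from gut epithelium, had 145, 159 and 137 RPKM under oxygen, against 20.3, 30.5 and 23.1 RPKM in room air (2.57 ± 0.17). In all of these the groups lay far apart. The glutathione reductase gene Gsr rose by 1.19 ± 0.16. Txnip, which binds and inhibits thioredoxin, fell to 261, 272 and 288 RPKM under oxygen, against 432, 405 and 489 RPKM in room air (-0.69 ± 0.14).

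Among enzymes that remove superoxide and hydrogen peroxide directly more genes were lower than higher, as among all tested genes (36.5% lower and 26.3% higher). Of 10 superoxide dismutases, catalase and peroxiredoxins 2 were higher and 5 lower (median -0.24). Catalase, Cat, had 94.9, 95.8 and 82.3 RPKM under oxygen, against 184, 180.2 and 176 RPKM in room air (-0.99 ± 0.09), with no overlap. Prdx2, a peroxiredoxin abundant in red cells, fell by 0.81 on the log2 scale. Sod2, the mitochondrial dismutase, had 31.1, 31.9 and 36.5 RPKM under oxygen, against 29.5, 27.8 and 29.4 RPKM in room air, groups that did not overlap, and was not called (0.19 ± 0.13, adjusted p = 0.233). For superoxide dismutases, catalase and peroxiredoxins the count called higher was 0 without oxygen replicate 2 or room-air replicate 1 and 1 without oxygen replicate 1. For superoxide dismutases, catalase and peroxiredoxins the count called lower was 3 without oxygen replicate 3 or room-air replicate 2.

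Glutathione S-transferases, which couple glutathione to toxic products, went both ways, with 6 of 20 higher and 9 lower (median -0.04, 0.02 with median-ratio scaling and 0.09 with quantile normalization). Gsta1 had 4.71, 8.32 and 6.89 RPKM under oxygen, against 0.197, 0.158 and 0.0608 RPKM in room air (3.46 ± 0.19), and Gsta4, which clears lipid aldehydes, had 162, 212 and 181 RPKM under oxygen, against 86.6, 112 and 93.1 RPKM in room air (0.92 ± 0.12). Gstt1 fell to 48.9, 41.9 and 42.4 RPKM under oxygen, against 109, 132 and 105 RPKM in room air. Gsta1 and its close copy Gsta2 (1.71 ± 0.14) share sequence, so the split of reads between them is uncertain. For glutathione S-transferases the median log2 change was 0.02 without oxygen replicate 3 and 0.00 without room-air replicate 2.

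NADPH is the reductant of both thiol systems. Among 13 genes of its supply and of the pentose phosphate pathway 4 were higher and 6 lower (median -0.25). Pgd, the second oxidative step of the pentose phosphate pathway, had 222, 249 and 221 RPKM under oxygen, against 69.7, 73.8 and 75.7 RPKM in room air (1.65 ± 0.11). G6pdx, the first step, had 29.9, 24.1 and 26.8 RPKM under oxygen, against 26.9, 23.1 and 31.1 RPKM in room air and was not called (0.00 ± 0.12, adjusted p = 0.995). Taldo1 and Tkt, of the nonoxidative branch, rose by 0.89 ± 0.08 and 0.47 ± 0.07. Nnt, a mitochondrial source of NADPH that is known to carry a deletion in this strain, had 4.19, 3.74 and 2.99 RPKM under oxygen, against 7.998, 7.68 and 7.68 RPKM in room air (-1.01 ± 0.12). All 9 tested genes of NADPH oxidases, enzymes that make superoxide on purpose, and of their subunits were lower (median -1.04). Nox4, the oxidase of mesenchymal and endothelial cells, fell by 0.54 on the log2 scale.

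Metallothioneins, small proteins that bind zinc and other metals, had the largest rises of the redox and metal lists. Mt2 (chromosome 8, 96696518 to 96697467; the submitters' notes name mm8 and mm9 without a role, and positions here follow one of them) had 2555, 2681 and 2777 RPKM under oxygen, against 71.5, 81.2 and 51.7 RPKM in room air (5.31 ± 0.29). Mt1, its neighbour (chromosome 8, 96702989 to 96704227), had 1681, 2066 and 2019 RPKM under oxygen, against 109, 161 and 109 RPKM in room air (3.94 ± 0.22). Every oxygen library exceeded every room-air library in both. The zinc importer Slc39a14, which also carries iron, rose by 2.07 ± 0.14 and the exporter Slc30a4 by 1.53 ± 0.09. In the whole list of metallothioneins and zinc carriers 6 of 12 genes were higher and 4 lower (median 0.21).

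Genes of heme and iron went both ways, 7 of 21 higher and 6 lower (median 0.13). Hmox1, which breaks down heme, had 117, 142 and 138 RPKM under oxygen, against 31.6, 39.5 and 43.8 RPKM in room air (1.79 ± 0.19). The ferritin light chain Ftl1 had 7224, 7613 and 6494 RPKM under oxygen, against 2349, 3474 and 2794 RPKM in room air (1.32 ± 0.18), and the heavy chain Fth1 rose by 0.68 ± 0.14. Alas1, the first enzyme of heme synthesis outside red cells, had 63.9, 64.4 and 58.8 RPKM under oxygen, against 155, 216 and 189.8 RPKM in room air (-1.57 ± 0.12), in the opposite direction and again with no overlap. Hamp, the gene of the iron hormone hepcidin, fell to 0.299, 0.287 and 0.824 RPKM under oxygen, against 3.82, 6.51 and 5.82 RPKM in room air (-2.61 ± 0.49). Fth1 was not called without a filter on low values (adjusted p = 0.114).

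Of 6 inhibitors of cyclin-dependent kinases, which halt the cell cycle, 2 were higher and 2 lower (median -0.27). Cdkn1a, the p53 target that encodes p21, had 479, 443 and 477 RPKM under oxygen, against 56.4, 138 and 111 RPKM in room air (2.28 ± 0.24), and Cdkn2b, the p15 gene induced by TGF-beta, had 85.003, 69.7 and 74.8 RPKM under oxygen, against 25.4, 21.03 and 22.0 RPKM in room air (1.72 ± 0.12). Cdkn1b, the p27 gene, fell to 17.8, 18.9 and 19.9 RPKM under oxygen, against 42.5, 32.5 and 44.8 RPKM in room air (-1.05 ± 0.12). Of 33 cell cycle and DNA replication genes 13 were lower and 3 higher, with 17 not called (median -0.29). Top2a, a topoisomerase of dividing cells, had 2.05, 1.69 and 2.34 RPKM under oxygen, against 4.001, 2.76 and 6.05 RPKM in room air (-0.87 ± 0.25). Ccna2 and Cdk1 were not called (-0.18 ± 0.17 and -0.44 ± 0.26). Ccnd1, the cyclin of the G1 phase, rose to 104, 99.9 and 91.2 RPKM under oxygen, against 56.7, 55.2 and 61.3 RPKM in room air (0.76 ± 0.08). Histone genes, most of them expressed with DNA replication, were lower in 9 of 13 cases and higher in 1 (median -0.93). The one that rose was H1f0, the linker histone of arrested cells (1.10 ± 0.14). Near-identical histone copies may share reads, so single histone values are uncertain. For cyclin-dependent kinase inhibitors the median log2 change was 0.19 with the filter at 5 RPKM. For replication-dependent histone genes the count called higher was 2 without oxygen replicate 3, 10% fat oxygen replicate 1, 10% fat oxygen replicate 2, 10% fat oxygen replicate 3, room-air replicate 1 or 10% fat room-air replicate 3.

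Of 25 apoptosis genes 6 were higher and 4 lower, and 15 were not called (median 0.11). Bax, which opens the mitochondrial membrane, had 214, 203 and 184 RPKM under oxygen, against 60.3, 70.0 and 69.7 RPKM in room air (1.58 ± 0.09). Bcl2l1, whose main product protects against it, had 254, 253 and 236 RPKM under oxygen, against 55.9, 75.4 and 75.1 RPKM in room air (1.85 ± 0.12). Both lists of values parted completely. The death receptor gene Tnfrsf10b rose by 1.41 ± 0.15, while Bbc3, the p53 target that encodes PUMA, was not called (0.13 ± 0.09). In lytic death 3 of 15 genes were higher and 7 lower (median 0.02). Mlkl, the pore former of necroptosis, rose by 0.96 ± 0.19, and Acsl4, which loads membranes with the lipids that peroxidise in ferroptosis, by 0.55 ± 0.10. Casp1 and Gsdmd of the inflammasome fell by 0.90 and 0.42 on the log2 scale. For apoptosis machinery the median log2 change was -0.02 without room-air replicate 2. For lytic death and inflammasome the count called lower was 4 without oxygen replicate 1 or room-air replicate 1. For lytic death and inflammasome the median log2 change was -0.16 without oxygen replicate 1 or room-air replicate 2, -0.04 without oxygen replicate 3 and -0.02 without room-air replicate 1.

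Of 26 heat shock genes, of the cytosol apart from the mitochondrial Hspd1 and Hspe1, 13 were lower and 5 higher (median -0.30). Hspa8, the constitutive HSP70, had 468, 783 and 659 RPKM under oxygen, against 1205, 2201 and 1583 RPKM in room air (-1.37 ± 0.23), and its cochaperone Dnaja1 had 24.0, 35.7 and 30.6 RPKM under oxygen, against 81.0, 138 and 83.0 RPKM in room air (-1.70 ± 0.19). Neither gene overlapped. Hspa1b, an inducible HSP70 gene whose near-identical copy is Hspa1a (-1.55 ± 0.58), had 10.2, 19.3 and 10.7 RPKM under oxygen, against 19.6, 133 and 22.6 RPKM in room air (-1.57 ± 0.55, adjusted p = 0.0243). Room-air replicate 2 was several times above the other libraries for it, and was also the highest of the 6 for Hsph1, Dnajb1 and Hspb1. Hsp90aa1, Hspd1 and Hspe1 were not called (0.28 ± 0.23, 0.39 ± 0.16 and 0.10 ± 0.26). Both RNA-binding proteins known to rise in cooled cells were higher: Rbm3 had 505, 492 and 504 RPKM under oxygen, against 115, 103 and 119 RPKM in room air (2.15 ± 0.08), and Cirbp rose by 1.84 ± 0.17. Hspa1a was not called without oxygen replicate 1, oxygen replicate 3 or room-air replicate 2 (adjusted p = 0.0861 to 0.113), nor without a filter on low values, after quantile normalization or in a fit of the 60% fat libraries alone (adjusted p = 0.0574 to 0.101). Hspa1b was not called without oxygen replicate 1 or oxygen replicate 3 (adjusted p = 0.0718 to 0.0757), nor without a filter on low values or in a fit of the 60% fat libraries alone (adjusted p = 0.0604 to 0.0819). Without room-air replicate 2 the log2 change of Hspa1b was -0.69. Hsp90aa1 was called without room-air replicate 2 (adjusted p = 0.0375). Hspd1 was called without room-air replicate 2 or 10% fat room-air replicate 1 (adjusted p = 0.00298 to 0.0334) and after median-ratio scaling (adjusted p = 0.0455). For cytosolic heat shock proteins the count called higher was 8 without room-air replicate 2.

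The proteasome, which degrades tagged proteins, had 21 of 38 subunit genes higher and 5 lower (median 0.30). The 5 that fell were Psmb8, Psmb9 and Psmb10, the catalytic subunits of the immunoproteasome, and Psme1 and Psme2, the activator that serves it, all known to be induced by interferon. Psmb9 had 17.7, 19.7 and 18.7 RPKM under oxygen, against 44.6, 44.5 and 50.5 RPKM in room air (-1.29 ± 0.11), while Psmb5, a catalytic subunit of the standard proteasome, had 138, 129 and 133 RPKM under oxygen, against 73.8, 111 and 90.5 RPKM in room air (0.55 ± 0.14). Psmd8, of the regulatory particle, rose most, with 174, 188 and 187 RPKM under oxygen, against 72.0, 80.1 and 73.5 RPKM in room air (1.28 ± 0.08).

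**Figure D2:**
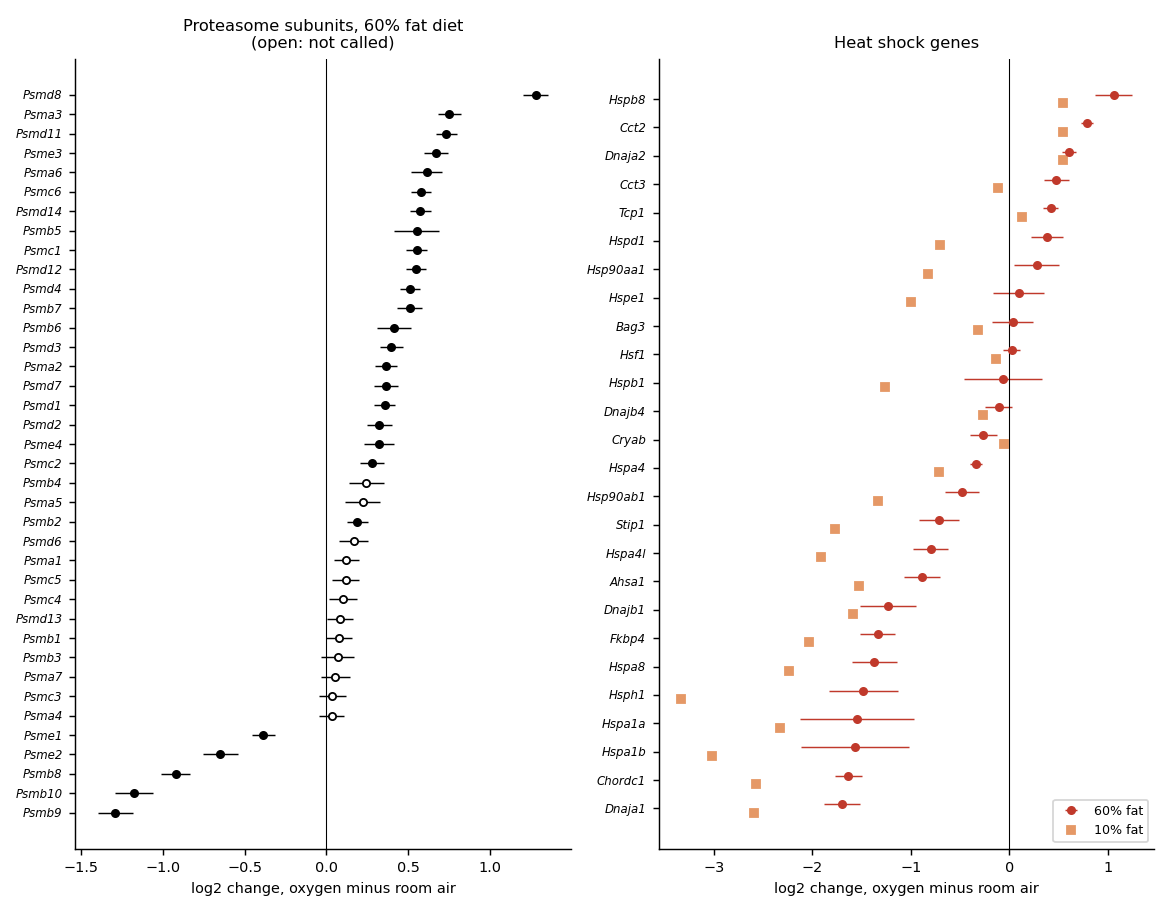
Log2 change of proteasome genes (left) and of heat shock genes (right), oxygen minus room air on the log2(RPKM + 0.5) scale with standard errors. On the left, filled circles are called genes and the 5 lowest are the immunoproteasome subunits and their activator; on the right, circles with standard errors are the 60% fat effect and squares, without them, the 10% fat effect, which lies further left in most rows.

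Factors that build ribosomes rose far more often than the ribosomal proteins. Of 31 biogenesis genes 27 were higher and 0 lower (median 0.76), and of 76 ribosomal protein genes 22 were higher and 1 lower (median 0.16). Myc, the transcription factor known to drive both, had 38.8, 51.3 and 56.4 RPKM under oxygen, against 4.89, 4.76 and 5.26 RPKM in room air (3.16 ± 0.14, 8.91-fold). The nucleolar GTPase gene Gnl3 had 46.9, 48.5 and 51.1 RPKM under oxygen, against 14.0, 12.1 and 12.5 RPKM in room air (1.89 ± 0.08), and Nop58, a core protein of the complexes that methylate ribosomal RNA, rose by 1.56 ± 0.07. None of these overlapped. Rps2 had the largest rise of the ribosomal proteins (0.96 ± 0.10). Ribosomal protein genes have many processed copies, so their reads may be shared. For ribosome biogenesis factors the count called lower was 1 without room-air replicate 1. For cytosolic ribosomal proteins the count called higher was 14 without oxygen replicate 2 and 39 without room-air replicate 2. For cytosolic ribosomal proteins the count called lower was 0 without oxygen replicate 1, oxygen replicate 2, oxygen replicate 3, 10% fat oxygen replicate 1, 10% fat oxygen replicate 2, room-air replicate 2 or room-air replicate 3 and 4 without room-air replicate 1.

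In autophagy and the lysosome 10 of 30 genes were higher and 8 lower (median 0.06, -0.02 with quantile normalization). Sqstm1, the cargo receptor p62, had 582, 634 and 582 RPKM under oxygen, against 208, 235 and 200.4 RPKM in room air (1.48 ± 0.09). Map1lc3b, a coat protein of autophagosomes, had 107, 109 and 118 RPKM under oxygen, against 166, 193 and 170.0 RPKM in room air (-0.66 ± 0.11), and the initiating kinase gene Ulk2 fell by 1.17 on the log2 scale. The protease gene Ctsl rose by 0.99 ± 0.10.

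Of 24 glycolysis genes 13 were higher and 8 lower (median 0.19). Slc2a1, the glucose carrier GLUT1, had 51.9, 52.9 and 53.0 RPKM under oxygen, against 12.1, 15.8 and 14.0 RPKM in room air (1.88 ± 0.10), and Hk2 and Pfkfb3, which trap glucose and set the pace of the pathway, rose by 1.02 ± 0.12 and 1.34 ± 0.14. Ldha was not called, with 191, 184 and 195 RPKM under oxygen, against 166, 218 and 185 RPKM in room air (0.01 ± 0.12). The lactate exporter Slc16a3 fell by 1.16 on the log2 scale and the muscle enolase gene Eno3 by 1.48. Hypoxia response genes were mostly not called, with 5 of 17 higher and 3 lower (median 0.03). Hif1a, the oxygen-regulated factor, had 79.0, 86.2 and 87.0 RPKM under oxygen, against 24.0, 17.9 and 22.9 RPKM in room air (1.95 ± 0.13), whereas Vegfa, its angiogenic target, had 289.6, 263 and 238 RPKM under oxygen, against 275, 268 and 236 RPKM in room air and was not called (0.02 ± 0.10, adjusted p = 0.873). Bnip3l, another target, fell by 1.26 on the log2 scale. For hypoxia response the median log2 change was -0.01 without room-air replicate 3.

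Of 57 genes of the respiratory chain and ATP synthase 35 were not called, 13 were higher and 9 lower (median 0.11, -0.04 with quantile normalization). The 2 largest falls were those of Cox7a1 (-2.37 ± 0.23) and Cox8b (-2.25 ± 0.47), isoforms of heart and skeletal muscle. They moved with other muscle genes: all 8 heart muscle markers fell, among them Myl7, an atrial myosin light chain with 17.4, 6.03 and 14.7 RPKM under oxygen, against 106, 133 and 103 RPKM in room air (-3.23 ± 0.38), and their summed level was 34.0 to 75.5 RPKM in the oxygen libraries, against 530.0 to 596 RPKM in the room-air libraries. Mouse pulmonary veins are known to carry a sleeve of heart muscle. Whether the amount of such tissue in the samples had a part in these values and in those of the other muscle genes named above was not tested. Atp5b, a subunit of every tissue, rose by 0.42 ± 0.08. For respiratory chain and ATP synthase subunits the count called higher was 25 without room-air replicate 2.

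**Figure D3:**
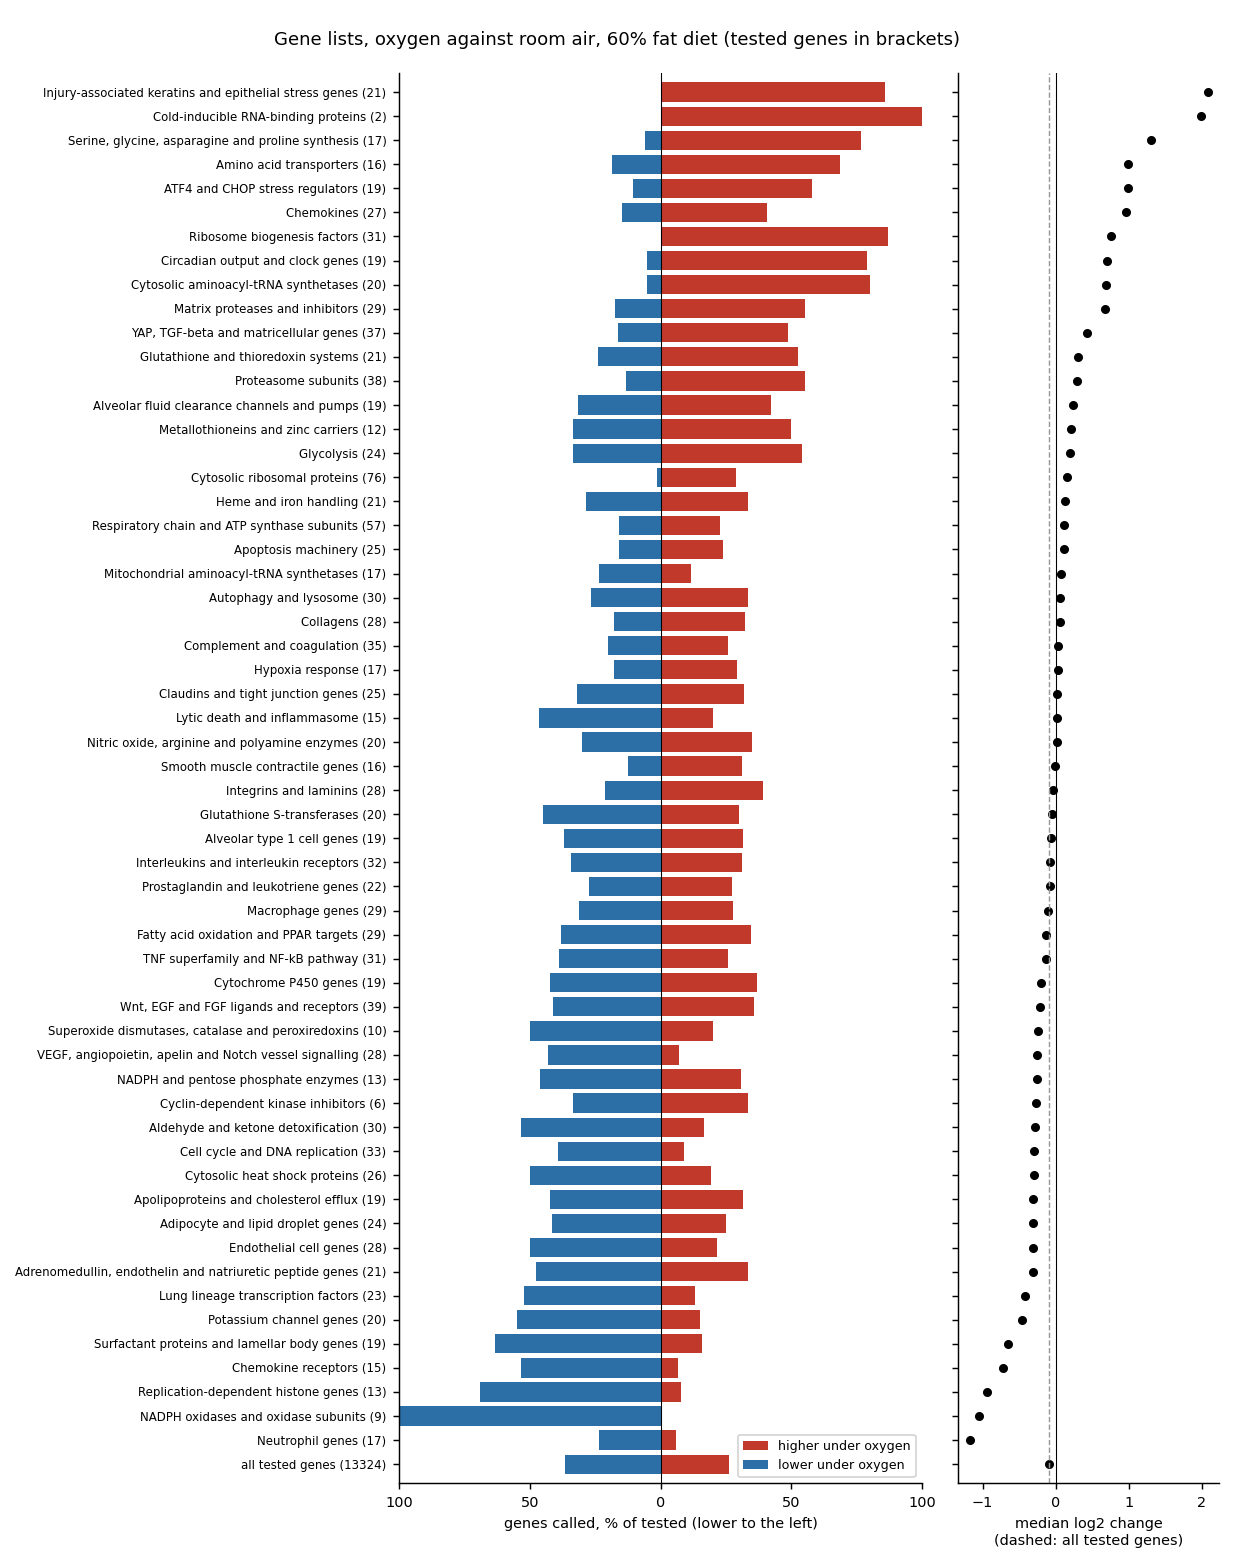
Percent of tested genes called higher (right of 0) and lower (left of 0) under oxygen in each of 57 gene lists, and the median log2 change of each list (right panel), with all tested genes in the lowest row. Among the lists with the most calls in 1 direction are injury-associated keratins and ribosome biogenesis (higher) and NADPH oxidases (lower).

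Of 21 genes known from injured or stressed epithelium 18 were higher and 0 lower (median 2.08). Krt8, a keratin of simple epithelium that marks cells in transition after alveolar injury, had 656, 649 and 708 RPKM under oxygen, against 139, 194 and 139.8 RPKM in room air (2.10 ± 0.14), and its partner Krt18 had 356, 392.2 and 424 RPKM under oxygen, against 83.1, 111 and 83.7 RPKM in room air (2.08 ± 0.13). Sprr1a, which encodes an envelope protein of squamous epithelium, had 39.9, 51.2 and 58.0 RPKM under oxygen, against 1.27, 1.04 and 2.70 RPKM in room air (4.59 ± 0.30). The oxygen libraries exceeded the room-air libraries throughout. Tnfrsf12a, the receptor of TWEAK, rose 14.7-fold to 284, 295 and 307 RPKM, against 14.4, 31.5 and 16.5 RPKM in room air. Sfn, the p53-induced 14-3-3 sigma gene, rose by 2.36 ± 0.26 and Lgals3, a galectin of epithelium and macrophages, by 2.42 ± 0.24. Lcn2, a neutrophil and epithelial siderophore trap, had 361, 264 and 466 RPKM under oxygen, against 129.9, 134 and 599.8 RPKM in room air and was not called (0.69 ± 0.66), with its highest value in room-air replicate 3.

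Claudins, which set the leak of the paracellular path, went both ways: 8 of 25 genes were higher and 8 lower (median 0.02, -0.11 with quantile normalization). Cldn4, a claudin of epithelium, had the largest rise of the list, with 126, 158 and 144 RPKM under oxygen, against 3.26, 2.74 and 2.91 RPKM in room air (5.36 ± 0.12), groups far apart. Cldn18, the main claudin of the alveolus, had 251, 242 and 249 RPKM under oxygen, against 275, 280.0 and 273 RPKM in room air and was not called (-0.16 ± 0.09). The endothelial Cldn5 was not called either (0.03 ± 0.19). Cldn10, known from airway cells, had 6.71, 6.62 and 3.97 RPKM under oxygen, against 35.3, 44.4 and 33.2 RPKM in room air (-2.63 ± 0.20), and the scaffold gene Tjp3 fell by 1.78 on the log2 scale. Cldn18 was called after quantile normalization (adjusted p = 0.00492). For claudins and tight junction genes the median log2 change was -0.04 without oxygen replicate 1, -0.09 without room-air replicate 1 and -0.08 without room-air replicate 3.

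Channels and pumps that clear fluid from the airspaces moved by subunit, with 8 of 19 higher and 6 lower (median 0.24). For the epithelial sodium channel, the alpha subunit Scnn1a had 256, 243 and 254 RPKM under oxygen, against 132, 137 and 132 RPKM in room air (0.91 ± 0.07), the beta subunit Scnn1b had 48.7, 34.2 and 37.0 RPKM under oxygen, against 63.9, 71.5 and 59.4 RPKM in room air (-0.71 ± 0.12), and the gamma subunit Scnn1g was not called (-0.06 ± 0.14, adjusted p = 0.741). The alpha and beta subunits thus moved in opposite directions, each without overlap. The channel-stabilising kinase gene Sgk1 rose by 1.51 ± 0.17. Slc26a9, a chloride channel of airway cells, fell to 4.45, 3.15 and 3.53 RPKM under oxygen, against 13.9, 10.3 and 11.2 RPKM in room air. Aqp5, the water channel of type 1 cells, rose by 0.56 ± 0.16, and Aqp1, that of capillaries, fell by 0.57 on the log2 scale. Scnn1g was called without oxygen replicate 1 (adjusted p = 0.0452).

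Type 1 cell genes were divided, 6 of 19 higher and 7 lower (median -0.06, 0.00 with median-ratio scaling). Rtkn2 had 14.99, 21.8 and 14.2 RPKM under oxygen, against 84.99, 70.4 and 73.2 RPKM in room air (-2.15 ± 0.19), while Gprc5a, which encodes an orphan receptor of alveolar cells, had 1087, 881 and 861 RPKM under oxygen, against 346, 436 and 364 RPKM in room air (1.30 ± 0.12). Hopx was not called (-0.20 ± 0.12). The 6 type 1 cell markers, of which 3 were lower and 1 was higher, summed to 2572 to 2886 RPKM under oxygen, against 3040.4 to 4044 RPKM in room air. Of 23 lung lineage transcription factors 12 were lower and 3 higher (median -0.41). Elf5, known from distal lung progenitors, had 3.16, 2.81 and 2.82 RPKM under oxygen, against 15.2, 13.04 and 12.7 RPKM in room air (-2.04 ± 0.17), and Sox2 of the airways (-0.83 ± 0.13), Etv5 of type 2 cells (-0.73 ± 0.12) and Cebpa of mature epithelium (-0.78 ± 0.09) fell too. Sox9, the factor of embryonic tip cells, had 1.69, 1.67 and 1.79 RPKM under oxygen, against 0.188, 0.179 and 0.279 RPKM in room air (1.63 ± 0.13), and Klf5 rose by 1.35 ± 0.13. For alveolar type 1 cell genes the median log2 change was 0.02 without oxygen replicate 2.

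The type 2 cell list of surfactant proteins and lamellar bodies had 12 of 19 genes lower and 3 higher (median -0.66). Lpcat1, which remodels surfactant lecithin, had 41.7, 37.0 and 39.7 RPKM under oxygen, against 141, 118 and 131 RPKM in room air (-1.71 ± 0.11), and the lipid pump gene Abca3 had 40.3, 27.6 and 31.6 RPKM under oxygen, against 90.0, 82.3 and 84.3 RPKM in room air (-1.37 ± 0.13). Sftpa1 fell by 1.61 on the log2 scale. The type 2 marker list used for the tissue check had a summed level of 10786 to 14047 RPKM under oxygen, against 25641 to 38176 RPKM in room air, and 7 of its 8 genes were lower. Its part in the values of other genes of these cells was not tested.

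Genes of aldehyde and ketone detoxification were more often lower than higher, as were all tested genes (36.5% lower and 26.3% higher). Of 30 detoxification genes 16 were lower and 5 higher (median -0.29). Aox3, an aldehyde oxidase, had 8.91, 5.64 and 6.81 RPKM under oxygen, against 53.7, 43.7 and 47.1 RPKM in room air (-2.69 ± 0.15), and Cbr2, a carbonyl reductase of club cells, had 1799, 1649 and 1658 RPKM under oxygen, against 3833, 5735 and 5046 RPKM in room air (-1.50 ± 0.17). Their relatives Akr1b8 and Cbr3, both known NRF2 targets, went the other way: Akr1b8 had 219, 230.0 and 218 RPKM under oxygen, against 19.7, 21.2 and 19.97 RPKM in room air (3.42 ± 0.11), and Cbr3 rose by 2.35 ± 0.11. Among 19 cytochrome P450 genes 7 were higher and 8 lower (median -0.21). Cyp2e1 fell by 1.71 on the log2 scale, Cyp4b1 was not called (0.19 ± 0.12), and Cyp1b1, a target of the aryl hydrocarbon receptor, rose by 0.90 ± 0.19. Of the 4 club cell markers 3 were lower and 0 higher. Their summed levels were 15431 to 17364 RPKM under oxygen, against 113940.0 to 184800.0 RPKM in room air. Most of that sum was Scgb1a1, with 16354, 16631 and 14441 RPKM under oxygen, against 110057, 179661 and 121158 RPKM in room air. The part of that difference in the falls of club cell enzymes was not tested. For cytochrome P450 genes the count called higher was 4 without oxygen replicate 2, oxygen replicate 3 or room-air replicate 2.

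Among genes of peptides that act on vessels, some peptide genes rose while genes of some of their receptors fell. Adm, which encodes adrenomedullin, a dilator that tightens the endothelium, had 47.7, 46.3 and 58.2 RPKM under oxygen, against 8.47, 7.01 and 4.12 RPKM in room air (2.91 ± 0.24). Adm2, a related peptide, had 19.0, 20.99 and 19.6 RPKM under oxygen, against 0.418, 0.201 and 0.0510 RPKM in room air (4.85 ± 0.16). Calcrl, the receptor both share, had 30.8, 36.2 and 31.8 RPKM under oxygen, against 285, 189 and 261 RPKM in room air (-2.86 ± 0.16). All oxygen values of both peptides lay above those of room air, and all oxygen values of the receptor below. Of the proteins that give the receptor its specificity, Ramp2 fell by 0.58 on the log2 scale and Ramp3 rose by 1.62 ± 0.27. Edn1, the constrictor endothelin, rose by 1.19 ± 0.16, while Ednrb, the receptor that clears it in endothelium, had 7.20, 7.76 and 8.82 RPKM under oxygen, against 34.5, 25.4 and 29.9 RPKM in room air (-1.85 ± 0.19) and Ednra of smooth muscle was not called (-0.25 ± 0.17). Nppb, the B-type natriuretic peptide gene, had 7.73, 9.92 and 6.59 RPKM under oxygen, against 0.387, 0.347 and 0.534 RPKM in room air (3.20 ± 0.22). Nppa, the atrial peptide gene, fell by 3.05 on the log2 scale beside the heart muscle markers. Over this list 7 of 21 genes were higher and 10 lower (median -0.31).

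Of 28 genes of VEGF, angiopoietin, apelin and Notch signalling 12 were lower and 2 higher (median -0.25). Kdr, the main VEGF receptor, had 26.6, 30.4 and 26.6 RPKM under oxygen, against 86.2, 52.9 and 60.4 RPKM in room air (-1.21 ± 0.22), and Tek, the angiopoietin receptor, had 27.1, 33.1 and 32.4 RPKM under oxygen, against 87.8, 65.9 and 72.6 RPKM in room air (-1.27 ± 0.17). Aplnr, the apelin receptor, had 0.974, 0.892 and 0.767 RPKM under oxygen, against 20.1, 9.96 and 12.1 RPKM in room air (-3.34 ± 0.26). In all 3 receptors the groups lay apart. The apelin gene Apln was not called (0.29 ± 0.25), nor were the angiopoietins Angpt1 and Angpt2 (-0.30 ± 0.22 and 0.16 ± 0.24), and Pgf, a placental VEGF relative, rose by 1.50 ± 0.15. The Notch target Hey1 fell by 1.73 on the log2 scale. Of 28 endothelial genes 14 were lower and 6 higher (median -0.31). Pecam1, an adhesion protein of the junctions, fell by 0.38 on the log2 scale, Sox18 had 21.6, 23.5 and 16.1 RPKM under oxygen, against 124, 90.6 and 91.1 RPKM in room air (-2.30 ± 0.23), and the shear-sensing factor gene Klf2 fell by 1.14. The 5 endothelial markers, of which 3 were lower and 1 was higher, summed to 605 to 673 RPKM under oxygen, against 670.4 to 797 RPKM in room air, which overlapped, and their part in the vessel values was not tested. Selp, the adhesion receptor P-selectin, had 7.28, 7.005 and 9.85 RPKM under oxygen, against 1.25, 1.22 and 1.27 RPKM in room air (2.28 ± 0.19). For VEGF, angiopoietin, apelin and Notch vessel signalling the count called higher was 4 without room-air replicate 1.

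**Figure D4:**
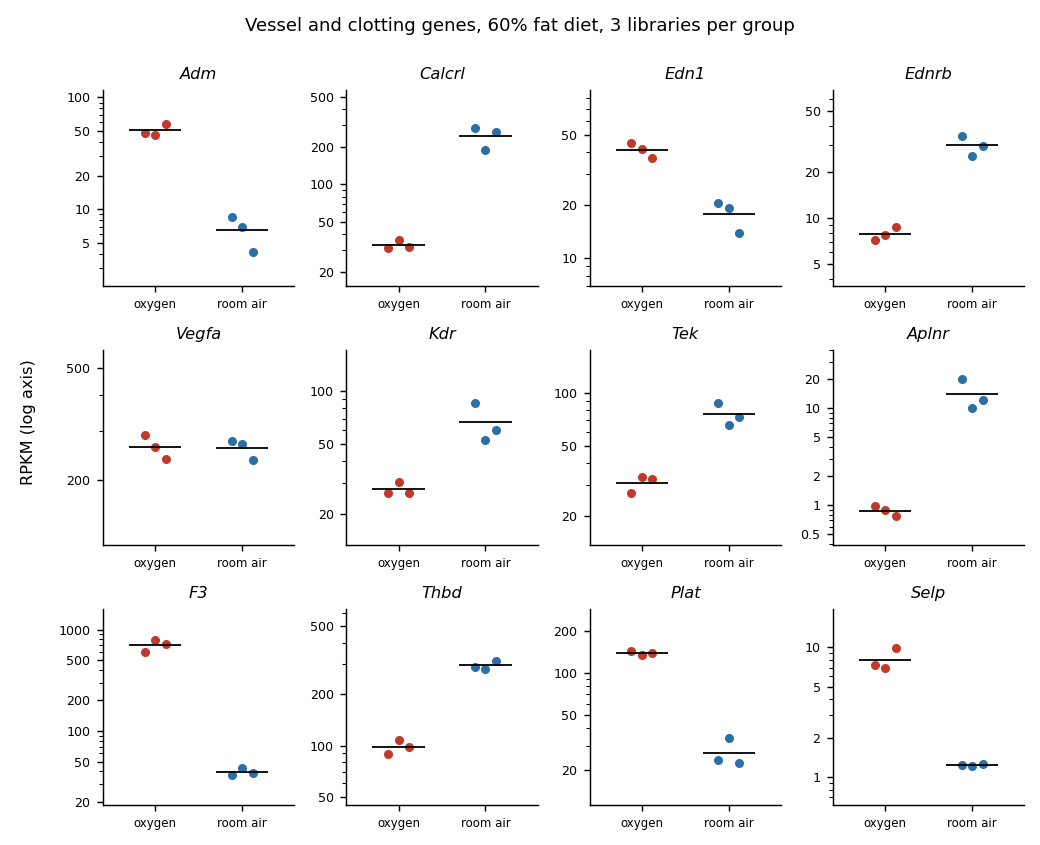
RPKM of 12 vessel and clotting genes in each library on a log axis, with 60% fat oxygen libraries on the left of each panel and 60% fat room-air libraries on the right. Bars mark group means. Adm, Edn1, F3, Plat and Selp are higher under oxygen, Calcrl, Ednrb, Kdr, Tek, Aplnr and Thbd are lower, and Vegfa overlaps.

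Among clotting genes F3, tissue factor (chromosome 3, 121426455 to 121437970), had 604, 792 and 726 RPKM under oxygen, against 37.2, 42.7 and 38.7 RPKM in room air (4.14 ± 0.10, 17.6-fold). Thbd, the endothelial thrombin receptor that starts anticoagulation, had 89.4, 107 and 98.3 RPKM under oxygen, against 289, 281 and 315 RPKM in room air (-1.58 ± 0.12). The plasminogen activator gene Plat had 142, 134 and 139 RPKM under oxygen, against 23.7, 34.0 and 22.6 RPKM in room air (2.37 ± 0.17). All 3 parted completely, Thbd downward and the others upward. Tfpi, the inhibitor of tissue factor, was not called (0.17 ± 0.10). Over the joint list of complement and coagulation 9 of 35 genes were higher, 7 lower and 19 not called (median 0.03, -0.02 with quantile normalization). Serpina3n, an acute-phase inhibitor, rose by 2.57 ± 0.13. Tfpi was called after median-ratio scaling (adjusted p = 0.0416). For complement and coagulation the count called lower was 4 without oxygen replicate 2. For complement and coagulation the median log2 change was -0.01 without oxygen replicate 3 or room-air replicate 2 and -0.04 without room-air replicate 1.

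Of 20 genes of nitric oxide, arginine and polyamines 7 were higher and 6 lower (median 0.01). Odc1, the first enzyme of polyamine synthesis, had 220.1, 203 and 170.3 RPKM under oxygen, against 46.4, 49.95 and 48.5 RPKM in room air (2.02 ± 0.10), and Srm, the spermidine synthase, rose by 1.49 ± 0.14, while Oaz2, an inhibitor of Odc1, fell by 1.39 on the log2 scale. Both arginases rose, Arg1 by 1.39 ± 0.27 and Arg2 by 1.23 ± 0.25. The inducible nitric oxide synthase gene Nos2 was not called (-0.33 ± 0.18), and Gucy1a3, part of the nitric oxide receptor, fell by 0.97. For nitric oxide, arginine and polyamine enzymes the median log2 change was -0.03 without oxygen replicate 1 and -0.06 without room-air replicate 1.

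Of 28 collagen and collagen enzyme genes 9 were higher, 5 lower and 14 not called (median 0.06). Col4a2, a basement membrane chain, had 347, 313 and 315 RPKM under oxygen, against 109, 105 and 95.8 RPKM in room air (1.65 ± 0.08). The fibrillar genes Col1a1 and Col1a2 were not called (-0.07 ± 0.17 and -0.28 ± 0.14). Lox, which cross-links collagen and elastin, had 59.0, 60.7 and 68.9 RPKM under oxygen, against 21.4, 19.2 and 21.1 RPKM in room air (1.58 ± 0.14), whereas Plod2, which prepares collagen for cross-links, fell by 0.89 on the log2 scale. Of 29 protease and inhibitor genes 16 were higher and 5 lower (median 0.67). Mmp3, stromelysin, had 94.5, 88.3 and 97.0 RPKM under oxygen, against 11.8, 18.6 and 14.0 RPKM in room air (2.64 ± 0.14), and Timp3, a matrix-bound inhibitor, had 782, 904 and 858 RPKM under oxygen, against 235, 239 and 235 RPKM in room air (1.84 ± 0.09). Adamts4, an aggrecanase, had 5.80, 8.68 and 10.4 RPKM under oxygen, against 0.657, 0.535 and 0.439 RPKM in room air (3.04 ± 0.24). Col1a2 was called after quantile normalization (adjusted p = 0.0337). For collagens the count called lower was 3 without oxygen replicate 2 or room-air replicate 3. For collagens the median log2 change was -0.01 without room-air replicate 3.

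Genes of the YAP and TGF-beta pathways, ligands and antagonists included, and of matricellular proteins were higher in 18 of 37 cases and lower in 6 (median 0.42). Ankrd1, a target of YAP known from stretched muscle and epithelium, had 395, 570.3 and 429.5 RPKM under oxygen, against 24.7, 26.8 and 23.4 RPKM in room air (4.17 ± 0.14). Ctgf, a matricellular target of both, had 606, 965 and 830.2 RPKM under oxygen, against 84.2, 104 and 87.8 RPKM in room air (3.10 ± 0.20). Tnc, tenascin C, had 12.3, 12.7 and 8.56 RPKM under oxygen, against 1.21, 1.70 and 1.18 RPKM in room air (2.64 ± 0.21). The oxygen libraries lay above all room-air libraries in all 3. Tgfb1 fell by 0.72 on the log2 scale and Tgfb2 rose by 1.26 ± 0.17. The activin gene Inhbb rose by 1.50 ± 0.19 and its antagonists Fst and Fstl3 by 1.78 ± 0.18 and 1.28 ± 0.11. Among integrins and laminins 11 of 28 were higher and 6 lower (median -0.04, 0.02 with median-ratio scaling and 0.04 with quantile normalization): the epithelial Itgb4 (1.91 ± 0.08) and Lama5 (1.69 ± 0.08) rose, and the leukocyte integrin gene Itgal fell (-2.01 ± 0.21). Of 16 smooth muscle genes 5 were higher and 2 lower (median -0.01, 0.04 with median-ratio scaling and 0.30 with quantile normalization). Tagln, which encodes an actin-binding protein, had 229, 209 and 151 RPKM under oxygen, against 68.5, 91.6 and 59.4 RPKM in room air (1.42 ± 0.20). For integrins and laminins the median log2 change was 0.01 without oxygen replicate 2, 0.02 without room-air replicate 1 and 0.04 without room-air replicate 3. For smooth muscle contractile genes the median log2 change was 0.39 with the filter at 5 RPKM, 0.03 without oxygen replicate 1, 0.04 without oxygen replicate 2, 0.07 without room-air replicate 1 and 0.08 without room-air replicate 2.

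Ligands of the EGF receptor family rose together with the receptor. Hbegf had 73.1, 61.0 and 56.6 RPKM under oxygen, against 18.2, 16.2 and 15.05 RPKM in room air (1.91 ± 0.12), and Nrg1, a ligand of ERBB3 and ERBB4, had 16.9, 26.4 and 20.3 RPKM under oxygen, against 2.37, 1.88 and 2.14 RPKM in room air (3.03 ± 0.17). Areg rose by 3.63 ± 0.26, Ereg by 2.36 ± 0.24, Tgfa by 0.66 ± 0.12 and Egfr by 0.65 ± 0.09. Alveolar growth factor receptors fell: Fgfr2, required for alveolar epithelium, had 15.6, 13.3 and 13.7 RPKM under oxygen, against 41.5, 41.7 and 40.7 RPKM in room air (-1.51 ± 0.07), and Met, the receptor of hepatocyte growth factor, fell by 1.11 on the log2 scale. Among Wnt genes Wnt7b rose (1.88 ± 0.15) and Wnt3a fell (-2.86 ± 0.15), as did Wnt2 (-1.38 ± 0.21). Over this list 14 of 39 genes were higher and 16 lower (median -0.21, 0.00 with quantile normalization).

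Chemokine genes were more often higher than lower, and the chemokine receptors the reverse. Of 27 chemokine genes 11 were higher and 4 lower (median 0.96), and of 15 receptor genes 1 was higher and 8 were lower (median -0.72). Ccl2, which draws monocytes, had 18.7, 18.6 and 31.7 RPKM under oxygen, against 2.24, 1.25 and 2.9 RPKM in room air (3.17 ± 0.38), and its relative Ccl7 had 11.4, 7.25 and 18.02 RPKM under oxygen, against 1.08, 0.761 and 2.74 RPKM in room air (2.68 ± 0.42). Ccl11, the eosinophil chemokine eotaxin, had 21.1, 23.5 and 17.5 RPKM under oxygen, against 4.96, 4.35 and 6.18 RPKM in room air (1.91 ± 0.16). Groups did not overlap for these. Cxcl12, which holds CXCR4-bearing cells in tissue, fell by 0.76 on the log2 scale, and Cxcr4 had 15.2, 16.2 and 15.5 RPKM under oxygen, against 50.1, 37.5 and 53.2 RPKM in room air (-1.54 ± 0.13). Cx3cr1 of monocytes fell by 1.80, and Ccr2, the receptor of Ccl2, had 12.3, 6.84 and 7.32 RPKM under oxygen, against 21.7, 7.30 and 23.4 RPKM in room air and was not called (-0.83 ± 0.47, adjusted p = 0.143). Many of these receptors mark lymphocytes: 3 of 4 T cell markers and 2 of 4 B cell markers were lower and none higher, with summed levels of 13.9 to 15.1 RPKM under oxygen, against 22.1 to 29.8 RPKM in room air for T cells and of 55.7 to 59.3 RPKM under oxygen, against 58.6 to 131 RPKM in room air for B cells, and their part in the receptor values was not tested. The receptor that rose was Cxcr7, a scavenger of Cxcl12 outside leukocytes, with 80.7, 80.4 and 73.0 RPKM under oxygen, against 25.0, 31.2 and 21.9 RPKM in room air (1.58 ± 0.12). Ccr2 was called without room-air replicate 2 (adjusted p = 0.0179). For chemokines the count called higher was 7 without oxygen replicate 3, room-air replicate 1 or room-air replicate 2. For chemokines the count called lower was 2 without oxygen replicate 1, oxygen replicate 3 or room-air replicate 3. For chemokine receptors the count called higher was 2 without room-air replicate 3. For chemokine receptors the count called lower was 5 without room-air replicate 3.

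Among 32 interleukin genes 10 were higher and 11 lower (median -0.07, 0.04 with quantile normalization). Il6 had 4.77, 5.16 and 9.93 RPKM under oxygen, against 0.831, 0.294 and 0.321 RPKM in room air (2.83 ± 0.44), and Lif, of the same receptor family, had 8.15, 6.85 and 8.67 RPKM under oxygen, against 0.984, 0.754 and 0.840 RPKM in room air (2.62 ± 0.17). Socs3, the feedback inhibitor of that family, rose by 1.26 ± 0.34, and Il11, a further member, by 0.84 ± 0.17. Il1b fell to 6.82, 5.81 and 6.56 RPKM under oxygen, against 29.7, 26.9 and 36.5 RPKM in room air (-2.186 ± 0.70, adjusted p = 0.0163), and Il33, an alarmin of alveolar epithelium, fell by 0.93 on the log2 scale. Of 31 genes of the TNF superfamily and NF-kB 8 were higher and 12 lower (median -0.14, 0.01 with quantile normalization). Tnfsf10, the ligand of the receptor gene Tnfrsf10b that rose, had 3.06, 3.90 and 4.04 RPKM under oxygen, against 44.1, 18.9 and 25.7 RPKM in room air (-2.77 ± 0.25), and Tnf was not called (0.46 ± 0.37). The NF-kB inhibitors Nfkbia and Tnfaip3 rose by 0.86 ± 0.15 and 0.78 ± 0.17. In prostaglandin and leukotriene synthesis 6 of 22 genes were higher and 6 lower (median -0.08, 0.05 with quantile normalization). Ptgs2, cyclooxygenase 2, had 34.7, 63.5 and 55.4 RPKM under oxygen, against 6.11, 7.03 and 6.34 RPKM in room air (2.84 ± 0.21), and Alox5, which starts leukotriene synthesis, fell by 0.62. Il1b was not called without a filter on low values (adjusted p = 0.0620). For interleukins and interleukin receptors the median log2 change was 0.00 without room-air replicate 3. For TNF superfamily and NF-kB pathway the median log2 change was 0.01 without room-air replicate 3. For prostaglandin and leukotriene genes the median log2 change was 0.03 with the filter at 5 RPKM and 0.06 without room-air replicate 3.

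Macrophage genes were divided, 8 of 29 higher and 9 lower (median -0.10). Csf1r, the receptor that sustains macrophages, had 27.2, 22.3 and 25.5 RPKM under oxygen, against 70.0, 51.3 and 74.0 RPKM in room air (-1.35 ± 0.13), whereas Gpnmb, of lipid-loaded macrophages, had 25.1, 30.1 and 30.9 RPKM under oxygen, against 6.13, 7.56 and 7.57 RPKM in room air (1.94 ± 0.46). Lyz2, a lysozyme gene of macrophages and type 2 cells with a close copy in Lyz1, fell by 1.75 on the log2 scale. Neutrophil genes varied widely in room air: S100a8, an abundant neutrophil protein, had 156, 67.5 and 211 RPKM under oxygen, against 442, 374 and 1687 RPKM in room air and was not called (-2.32 ± 1.02, adjusted p = 0.0638). Room-air replicate 3 was the highest by far. Summed levels of 5 neutrophil markers were 163 to 468 RPKM under oxygen, against 838 to 3592 RPKM in room air, but only 1 of the 5 was called lower and 0 higher. Over the neutrophil list 4 of 17 genes were lower and 1 was higher (median -1.18). The one that rose was Csf3, the growth factor of neutrophils, with 1.47, 1.30 and 3.85 RPKM under oxygen, against 0, 0.0336 and 0 RPKM in room air. S100a8 was called without 10% fat oxygen replicate 3 (adjusted p = 0.0130) and in a fit of the 60% fat libraries alone (adjusted p = 0.00828). For macrophage genes the count called higher was 4 without oxygen replicate 3 or room-air replicate 2 and 5 without room-air replicate 1. For macrophage genes the median log2 change was 0.01 without oxygen replicate 2 and 0.16 without room-air replicate 3. For neutrophil genes the count called higher was 2 without 10% fat oxygen replicate 3, room-air replicate 3, 10% fat room-air replicate 1 or 10% fat room-air replicate 3. For neutrophil genes the count called lower was 2 without oxygen replicate 1, oxygen replicate 2, room-air replicate 1 or room-air replicate 3 and 8 without 10% fat oxygen replicate 3.

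Lipid genes went both ways in each class below. Of the adipocyte list 66.7% were called, of the apolipoprotein list 73.7% and of the fatty acid oxidation list 72.4%, against 62.8% of all tested genes. Of 24 adipocyte and lipid droplet genes 6 were higher and 10 lower (median -0.30). Plin2, the droplet coat protein of most tissues, had 295, 312 and 359 RPKM under oxygen, against 86.5, 92.7 and 88.0 RPKM in room air (1.84 ± 0.15). Lipe, the hormone-sensitive lipase, had 14.7, 13.05 and 14.6 RPKM under oxygen, against 41.6, 48.0 and 42.7 RPKM in room air (-1.61 ± 0.08). Both were without overlap, in opposite directions. Plin1, known from fat cells, fell by 1.53 on the log2 scale. The 5 fat cell markers summed to 7.37 to 9.25 RPKM under oxygen, against 15.3 to 26.1 RPKM in room air. They did not move as a set: of the 4 tested, 3 were lower and 1 was higher. The other marker, Ucp1, was under 1 RPKM in all 6 libraries. Any part of fat tissue in these samples was not tested. Of 19 apolipoprotein and cholesterol efflux genes 8 were lower and 6 higher (median -0.30): Apoe had 291, 339.6 and 367 RPKM under oxygen, against 597, 599 and 587 RPKM in room air (-0.84 ± 0.11), Apoc1 fell by 2.17, and so did the efflux pump gene Abcg1 (-1.35 ± 0.12) and Nr1h3, the oxysterol sensor that controls them (-1.60 ± 0.14). In fatty acid oxidation 10 of 29 genes were higher and 11 lower, with the mitochondrial dehydrogenases Acadm (-1.04 ± 0.08) and Hadh (-0.99 ± 0.10) lower and Pdk4 (1.12 ± 0.10), which spares glucose, higher (median -0.13).

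Of 19 clock and clock output genes 15 were higher and 1 lower (median 0.70). Fkbp5, a glucocorticoid target counted in this list, had 66.5, 71.7 and 83.3 RPKM under oxygen, against 7.68, 18.1 and 20.8 RPKM in room air (2.32 ± 0.30), and the repressor gene Cry1 rose by 1.14 ± 0.15, while Per3 fell by 0.99 on the log2 scale. The labels do not give the time of day of the sampling. Of 20 potassium channel genes 11 were lower and 3 higher (median -0.46). Kcnj13, an inward rectifier of epithelium, had 0.611, 0.569 and 0.664 RPKM under oxygen, against 12.5, 14.0 and 11.1 RPKM in room air (-3.55 ± 0.18), and Kcne4, a modulating subunit, had 19.8, 25.3 and 41.6 RPKM under oxygen, against 3.12, 4.35 and 3.26 RPKM in room air (2.80 ± 0.27).

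The oxygen effect on 60% fat was then set against that on 10% fat by an interaction term, the first minus the second. The plain model called 5 of the tested genes, or 0.0375%, with 1371 at an unadjusted p under 0.05. Libraries of 1 exposure that bear the same replicate number deviated together, and with that number as a block within each exposure 243 genes were called (1.82%), of which 89 had a log2 change that was higher, sign included, on 60% fat than on 10% fat and 154 a lower one. Mmp3 was called in both fits: on 10% fat it had 53.5, 64.8 and 56.4 RPKM under oxygen, against 24.0, 28.4 and 29.6 RPKM in room air, so that its log2 change was 1.08 there and the interaction 1.56 ± 0.20 (adjusted p = 0.0240, 0.0152 with the block). Lyve1, a receptor of lymphatic vessels and some macrophages, had 737, 722 and 779 RPKM under oxygen, against 71.7, 99.0 and 88.5 RPKM in room air on 60% fat and 651, 711 and 756 RPKM under oxygen, against 197, 171 and 228 RPKM in room air on 10% fat (interaction 1.28 ± 0.18, adjusted p = 0.0309). In both genes the room-air values were lower on 60% fat than on 10% fat, and the oxygen values of Mmp3 were higher, while those of Lyve1 overlapped between the diets. Disp2, a relative of a hedgehog exporter, rose on 60% fat, with 7.25, 6.62 and 4.38 RPKM under oxygen, against 3.50, 4.19 and 2.67 RPKM in room air, and on 10% fat it had 1.85, 2.60 and 1.62 RPKM under oxygen, against 8.95, 7.16 and 11.1 RPKM in room air, a log2 change of -1.92 (interaction 2.65 ± 0.31, adjusted p = 0.0198). The arginine carrier gene Slc7a1 was the fourth gene with an interaction above 0 (0.70 ± 0.10). Sult1a1, a phenol sulfotransferase gene, had one below 0 (-0.94 ± 0.13, adjusted p = 0.0282), with a fall on 60% fat (log2 change -0.44 ± 0.09) and a log2 change of 0.51 on 10% fat. Next by p, and not called, were St6galnac2 (-0.85 ± 0.13), Prrt4 (-1.38 ± 0.22) and Slc5a3 (1.08 ± 0.17), each with an adjusted p of 0.0568 and, with the block, of 0.0173, 0.0336 and 0.0217 in that order. These 5 calls depended on single libraries. Of the 12 fits that leave out 1 library, the call was lost for Disp2 in 6 (0.00937 to 0.110), Lyve1 in 8 (0.0172 to 0.152), Mmp3 in 8 (0.00233 to 0.126), Slc7a1 in 10 (0.0291 to 0.195) and Sult1a1 in 8 (0.0228 to 0.128), with the range of adjusted p over these fits in brackets, and the count called was between 0 and 45. The calls were also lost for Disp2 without a filter on low values (adjusted p = 0.0869), Lyve1 without a filter on low values or after median-ratio scaling (adjusted p = 0.0712 to 0.118), Mmp3 without a filter on low values or after quantile normalization (adjusted p = 0.0513 to 0.103), Slc7a1 with a pseudocount of 1 (adjusted p = 0.0601) and Sult1a1 without a filter on low values (adjusted p = 0.0828).

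Among the 26 heat shock genes 11 were called with the block, all with a higher log2 change on 60% fat, and the list median was -0.30 on 60% fat and -1.13 on 10% fat. Hsph1, an HSP110 chaperone, had 24.2, 46.1 and 26.1 RPKM under oxygen, against 57.3, 155 and 73.6 RPKM in room air on 60% fat and 16.4, 27.2 and 15.1 RPKM under oxygen, against 155, 225 and 211 RPKM in room air on 10% fat (blocked interaction 1.85 ± 0.23, adjusted p = 0.0217). Hsp90aa1, the inducible HSP90, had 481, 524 and 428 RPKM under oxygen, against 639, 991 and 955 RPKM in room air on 10% fat and a blocked interaction of 1.11 ± 0.15 (adjusted p = 0.0217). The 10% fat room-air values of both were above those of 60% fat room-air replicates 1 and 3. Cirbp and Rbm3 went the other way, with blocked interactions of -0.78 ± 0.12 and -0.41 ± 0.08. Edn1 had 21.9, 27.5 and 17.8 RPKM under oxygen, against 22.1, 23.9 and 20.01 RPKM in room air on 10% fat, a log2 change of 0.01 (blocked interaction 1.18 ± 0.15, adjusted p = 0.0217). Of the 29 fatty acid oxidation genes 7 were called with the block, among them Hadh (-0.48 ± 0.08, adjusted p = 0.0337). Gclc, the catalytic subunit of glutathione synthesis, had a blocked interaction of 0.92 ± 0.17 (adjusted p = 0.0427). In the model of all libraries without a block none of these genes was called in the interaction.

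**Figure D5:**
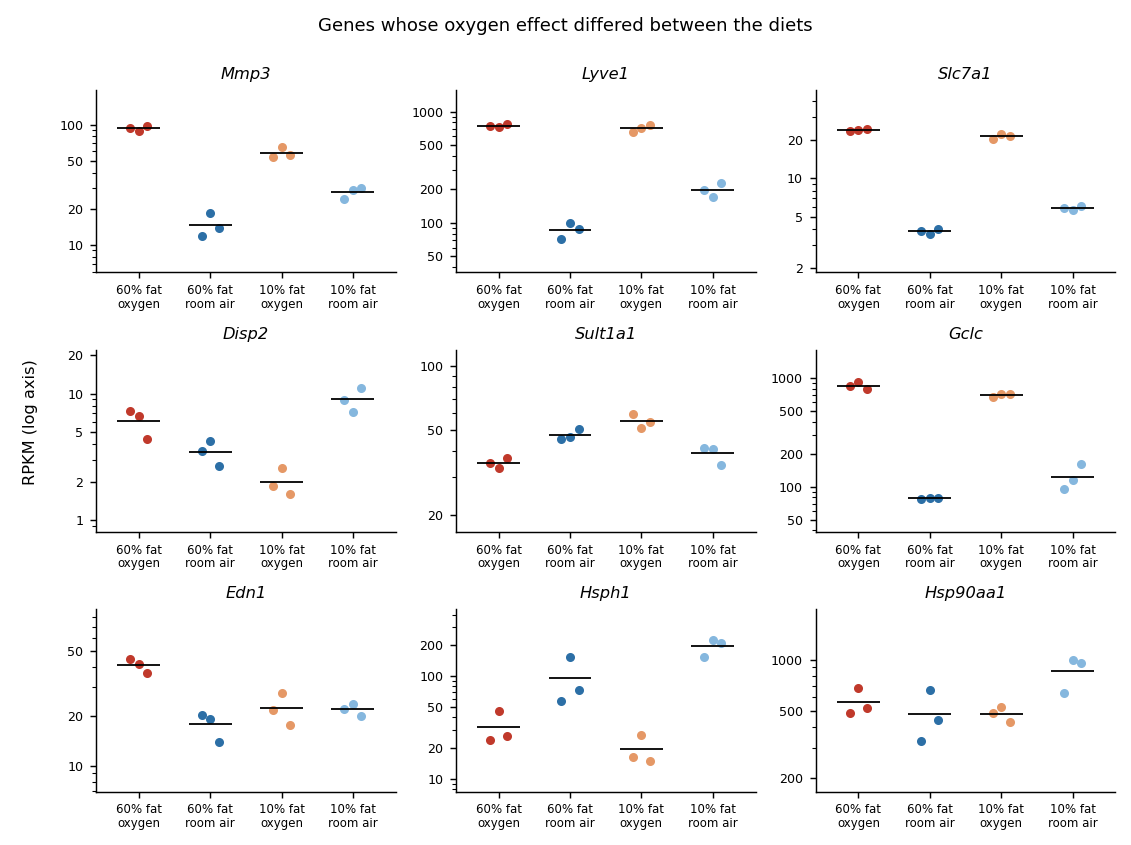
RPKM on a log axis in all 12 libraries for 9 genes named in the comparison of the diets. The order is 60% fat oxygen, 60% fat room air, 10% fat oxygen and 10% fat room air. In the model of all 12 libraries without a block the interaction was called for Mmp3, Lyve1, Slc7a1, Disp2 and Sult1a1, calls that depended on single libraries. With all 12 libraries Gclc, Edn1, Hsph1 and Hsp90aa1 were called only with a block. Bars mark group means. Mmp3, Lyve1 and Slc7a1 have lower room-air values on 60% than on 10% fat, and Edn1 parts by exposure on 60% fat only.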

How the data were processed

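Whole-lung RNA libraries of 12 samples, 3 in each of 4 groups of diet and exposure, were read from 1 table of RPKM values deposited by the authors. The submitters' processing notes name bcl2fastq 2.19, TopHat2 2.0.11 and the builds mm8 and mm9, with no role for each. The sources used here do not name the tool that computed the RPKM values. RPKM values are not counts, so no count test was run. Of 20793 entries 208 carried the authors' mark for too little data and were not used, nor were 85 single estimates marked as failed. Repeated symbols stayed as separate entries. Depth was read roughly from the steps between low values.

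Genes with at least 1 RPKM in at least 3 libraries and at least 2 usable values per group were tested on log2(RPKM + 0.5) with limma 3.58.1 in R 4.3.3. The model had a mean for each of 4 groups over all 12 libraries, so the groups shared 1 estimate of the spread, with moderated variances that followed a trend on the mean. Tests were two-sided, and p-values were adjusted by Benjamini-Hochberg over all tested genes, with a threshold of 0.05. The same fit gave the interaction of exposure and diet. It was tested on simulated data first. Same-numbered oxygen and room-air libraries on 60% fat did not deviate together (correlation of deviations from group means across genes -0.06 to 0.16). Same-numbered libraries of 1 exposure on both diets did, in all 6 pairs (0.29 to 0.49), so the interaction is also given with that block.

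The 57 gene lists, the marker lists and the motifs were chosen with earlier results of these data known, so lists are described by counts and medians and have no test. Named genes were the 15 largest rises and the 15 largest falls among called genes without overlap, the members marked in each list, the 4 largest called changes and the 2 highest levels of each list, and the 8 smallest p-values of the interaction. Predicted genes and antigen receptor segments were left out of the first of these. Psme1, Psme2, Shmt1 and the heart muscle markers Tnni3 and Tnnt2 were named after their values were seen. Of 1414 different listed genes 1306 were tested, 95 lay below the filter on low values and 13 had no entry under the listed symbol. Some members of the lists are not reported here by name. Promoter sequences came from RefSeq and positions from the deposited table. Alternatives were other pseudocounts, filters, scalings, a fit without the trend, blocks, a fit of the 60% fat libraries alone and fits without each library.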

Additional observations from a re-analysis of the deposited data

Results flagged for a closer look

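Each result here is a difference between 2 oxygen effects, that on 60% fat minus that on 10% fat, on the log2(RPKM + 0.5) scale, and each was picked out because a test of this interaction passed an adjusted p of 0.05 (limma, Benjamini-Hochberg adjustment over all tested genes). In the model without a block these were Disp2 (2.65), Mmp3 (1.56), Lyve1 (1.28), Slc7a1 (0.70) and Sult1a1 (-0.94).

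The others did not pass there and passed with the replicate number as a block within each exposure, some of them under further settings too. Chaperone genes had a higher log2 change on 60% fat, with 1.85 for Hsph1, 1.11 for Hsp90aa1, 1.09 for Hspe1, 1.09 for Hspd1, 0.89 for Dnaja1 and 0.86 for Hspa8, whereas the cold-inducible Cirbp (-0.78) and Rbm3 (-0.41) had a lower one. Room-air replicate 2 on 60% fat stood apart in heat shock genes, and without it and without a block the difference was 2.27 for Hsph1 (adjusted p = 0.0458, limma) and 1.37 for Hsp90aa1 (adjusted p = 0.0744). Some heart muscle genes passed with a lower log2 change on 60% fat, with -1.42 for Myh6, -1.27 for Csrp3, -1.24 for Myl7, -1.19 for Tnnt2, -1.14 for Myl4 and -0.96 for Tnni3. The muscle genes Sln, Mb, Mybphl, Tcap, Ckmt2 and Pln did not pass with the block (adjusted p = 0.106 to 0.190, limma). Their differences lay between -1.39 and -0.73.

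Among vessel genes the difference was 1.35 for Apln, 1.18 for Edn1, 0.73 for Selp, -0.70 for Calcrl, -0.61 for Tek and -0.62 for Gucy1a3. In metabolism and redox it was -0.48 for Hadh, 0.92 for Gclc, 0.63 for Odc1 and 1.08 for the inositol carrier gene Slc5a3. The remaining genes were Tnc (1.49), Ccnd1 (0.51), Nop58 (0.46), Cxcr4 (-0.60), Lgi3 (-0.84), St6galnac2 (-0.85) and Prrt4 (-1.38).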

How the results depend on the processing

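The oxygen comparison on 60% fat was stable in size. Against 8370 calls, 3508 higher and 4862 lower, other settings gave 6693 to 8734 calls, the lowest with a filter at 5 RPKM and the highest with no filter on low values. Leaving out single libraries gave 7475 to 8470 calls, 3146 to 3562 higher and 4328 to 5085 lower. The replicate block gave 8696, of which 3638 were higher and 5058 lower. It added calls of Col1a2, Ddit3, Hspd1 and S100a8 (adjusted p = 0.0282, 0.0477, 0.0124 and 0.00158) and changed no other call of the 278 genes named or drawn. Of the calls, 41.9% were higher, against 47.2% with median-ratio scaling and 50.1% with quantile normalization.

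The interaction count was not stable. It was 5 (4 above 0, 1 below), and with single libraries left out it was 0 to 45, 0 to 24 above 0 and 0 to 30 below. With the replicate number as a block over all libraries it was 17, 12 above and 5 below, and with the replicate block within each exposure 243, 89 above and 154 below. The cause was not tested.

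Among the 278 genes named or drawn, no called one changed direction, but uncalled ones did. Quantile normalization gave log2 changes of 0.041 for Ccna2, -0.13 for Cldn5, -0.018 for G6pdx, -0.17 for Ldha, 0.11 for Slc5a3 and -0.14 for Vegfa, and median-ratio scaling gave 4.0e-04 for Hspb1 and 0.0037 for Scnn1g. Without single libraries the ranges were -0.11 to 0.30 for Cldn5, -0.20 to 0.053 for Col1a1, -0.10 to 0.11 for G6pdx, -0.45 to 0.53 for Hspb1, -0.17 to 0.39 for Hspe1, -0.078 to 0.12 for Ldha, -0.26 to 0.086 for Scnn1g and -0.051 to 0.090 for Vegfa. RPKM values hold no read counts, so counting error could not be given.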
